A study of Sus scrofa with 20 samples.

Results

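Cytochrome P450 enzymes are heme proteins that use molecular oxygen to oxidise drugs, toxins, fatty acids, sterols, retinoids and vitamin D. Liver is the main site of the enzymes that clear foreign compounds, whereas many P450 enzymes that make or break down signalling molecules work in other tissues. Symbols give the family by number and the subfamily by letter, and most P450 enzymes receive electrons from cytochrome P450 oxidoreductase or, in mitochondria, from ferredoxin. The genes described here are those whose pig Ensembl symbol is CYP followed by a number, without CYP7A1, CYP7B1, CYP27A1 and CYP51A1, which act in bile acid and cholesterol synthesis. This rule found 25 of the 31907 genes of the count table, in 11 families. A further 8 identifiers with such a symbol were not in that table.

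RNA-seq compared backfat, the fat layer under the skin, with liver in Nanchukmacdon pigs, a Korean breed, to find genes that set the tissues apart. The animals were boars labelled wild type and normal, with an age of 22 months in the labels and a higher average age in the study's methods, and all 10 libraries, 5 per tissue, share this background, with no treatment named in the labels. Libraries are named by tissue and by the boar number in the column headers, 65, 67, 69, 71 and 72, and values given in a row follow that order. Both tissues are mixtures of cells, so fewer cells of a type and less RNA per cell cannot be told apart.

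Each library held 43820042 to 61772737 counted fragments. Levels are TMM-normalized CPM, counts scaled to a common library size, and levels of different genes are set side by side only as CPM per kb of exon. Markers fitted the tissue labels, with summed adipocyte markers at 9851 to 14320 CPM in backfat and 207 to 1203 CPM in liver. Most of the liver sum of adipocyte markers was PCK1, at 185 to 1183 CPM in liver and 52.9 to 282 CPM in backfat. The other adipocyte markers were each at no more than 11.9 CPM in any liver library. Hepatocyte markers summed to 174 to 631 CPM in backfat and 40590 to 151900 CPM in liver. Of these libraries, 2 stood apart. In liver 67 the mitochondrial genome gave 44.5% of counts, against 6.38% to 20.2% in the other liver libraries, and hepatocyte markers were at 29.3% of the liver median. Backfat 69 had the highest hepatocyte marker sum of the backfat libraries, 631 CPM against 174 to 219 CPM. Most of each of these sums was APOA1, at 482 CPM in backfat 69 and 167 to 213 CPM in the others. ALB was at 36.4 CPM in backfat 69 and 0.126 to 0.351 CPM in the others.

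P450 genes differed between the tissues in both directions, with members of families 1, 2, 4 and 26 higher in liver and members of families 2, 4, 21 and 26 higher in backfat. The filter on low counts left 18 of the 25 genes for the test, and a call required a log2 fold change (backfat over liver) of 2 or more in size together with an adjusted p not above 0.05. Of these, 12 were called, or 66.7%, against 22.3% of the 16275 genes tested. CYP1A1, CYP1A2, CYP2A19, CYP2D6, CYP2E1, CYP4F3 and CYP26A1 were higher in liver, 7 genes or 38.9%, against 11.2% of all genes. CYP2S1, CYP4B1, CYP4F22, CYP21A2 and CYP26B1 were higher in backfat, 5 genes or 27.8%, against 11.1%. The same 7 and 5 calls were counted when liver 67 and backfat 69 were left out together. The median log2 fold change was -0.59 over the 18 P450 genes and 0.00014 over all genes tested. Library values of backfat and liver did not overlap for 11 of the 18 genes, against 42.6% of all genes tested.

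**Figure D1:**
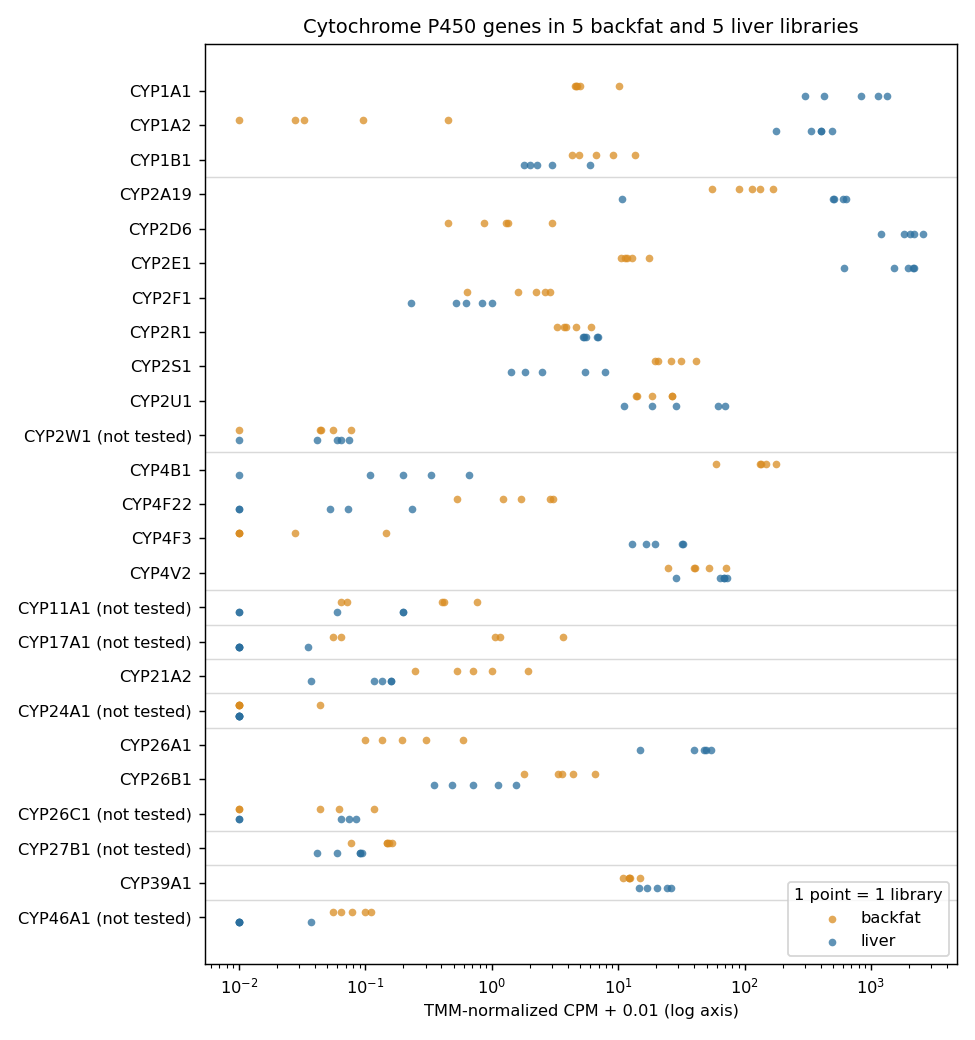
Level of each of the 25 P450 genes in every library, as TMM-normalized CPM + 0.01 on a log axis, with 1 point per library, backfat in orange and liver in blue, and grey lines between families. The largest separations are at CYP1A2, CYP2D6 and CYP4F3, higher in liver, and at CYP4B1, higher in backfat, while the point of liver 67 for CYP2A19 (10.8 CPM) lies below all backfat points.

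**Figure D2:**
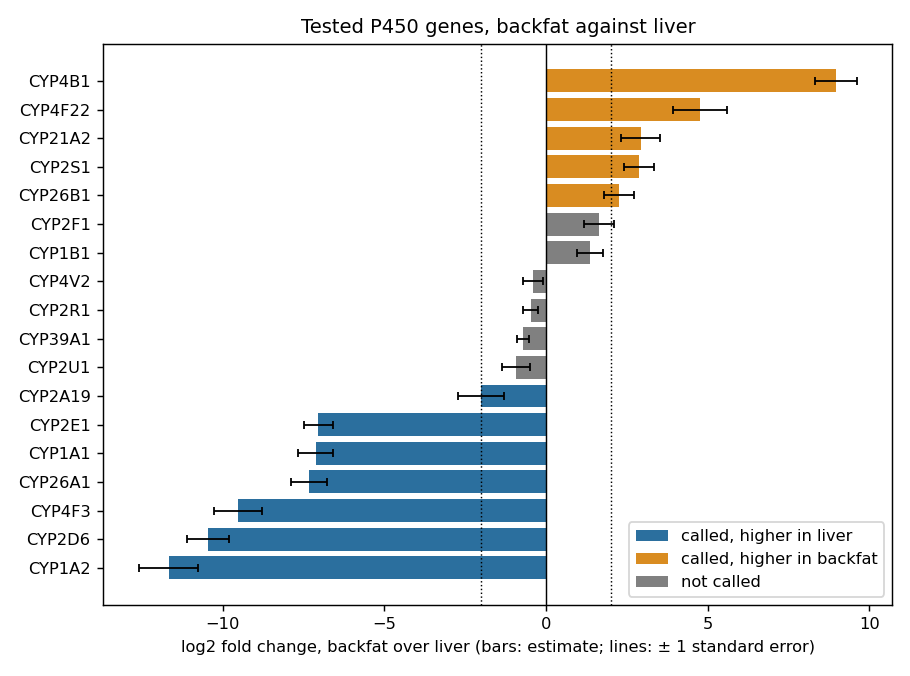
Log2 fold change, backfat over liver, of the 18 tested P450 genes with lines of 1 standard error, coloured by call, and dotted lines at 2 in either direction. Values run from -11.68 for CYP1A2 to 8.97 for CYP4B1, and CYP2A19 (-2.01) lies at the dotted line.

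The part of the enzyme that holds the heme is shared by members on both sides of the comparison. It is a loop of 10 residues around a cysteine that binds the heme iron, recognised here by its pattern of phenylalanine, glycine and cysteine codons. RefSeq transcripts of Sscrofa11.1 matched 13 of the 25 genes by symbol, and the loop was found in all 13. The loops of 5 of them are shown, 2 neighbours of family 1 higher in liver, CYP26A1 higher in liver, CYP21A2 higher in backfat, and CYP17A1, with the cysteine codon in capitals. They lie in the last coding exon, at chr7:58807770-58807799 on the plus strand for CYP1A1, chr7:58780063-58780092 on the minus strand for CYP1A2, chr14:104566715-104566744 on the plus strand for CYP26A1, chr7:24088614-24088643 on the plus strand for CYP21A2 and chr14:113805958-113805987 on the minus strand for CYP17A1.
CYP1A1: ttcggcttgggcaagcggaagTGCatcggt
CYP1A2: ttcggcatgggcaagcgccggTGCataggg
CYP26A1: tttggaggaggccttaggagcTGCgtgggg
CYP21A2: tttggctgcggggcgcgagtgTGCctgggg
CYP17A1: ttcggagcaggaccccgctctTGCgtaggg
CYP1A1 and CYP1A2 share 24 of the 30 bases, and CYP26A1 and CYP1A1 share 16. Over all 78 pairs of the 13 loops, 11 to 24 bases were the same. The search pattern fixed some bases in every loop, so part of each of these counts was set in advance. The cysteine codon was TGC in 7 genes and TGT in 6.

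In family 1, CYP1A1 and CYP1A2 were higher in liver and CYP1B1 was not called. These enzymes oxidise aromatic hydrocarbons, with CYP1A2 known as a liver enzyme and CYP1B1 as one of other tissues. CYP1A1 was at 4.94, 4.59, 10.2, 4.52 and 4.72 CPM in backfat. In liver it was at 1349, 300.2, 1132, 424 and 839 CPM. The tissues did not overlap, backfat 69 was the highest of its tissue, and liver 67 and 71 were the lowest of theirs. The log2 fold change was -7.13 ± 0.54 (SE, n = 5 per tissue, edgeR quasi-likelihood test, adjusted p = 3.05e-07).

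CYP1A2 was at 0.0226, 0, 0.437, 0.0180 and 0.0858 CPM in backfat. Its levels in liver were 494, 176, 403, 403 and 334 CPM. No library of backfat came near the liver values, and the log2 fold change of -11.68 ± 0.91 (SE, n = 5 per tissue, adjusted p = 4.07e-07, edgeR) was the largest in size of the P450 genes tested. Per kb of exon, CYP1A1 was at 233 ± 129 CPM and CYP1A2 at 176 ± 57.5 CPM in liver (SD, n = 5). In backfat, CYP1A1 was at 1.67 ± 0.707 CPM per kb and CYP1A2 at 0.0547 ± 0.0894 CPM per kb.

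CYP1B1 was at 4.31, 9.15, 4.86, 6.69 and 13.6 CPM in backfat and at 2.27, 5.97, 1.78, 3.001 and 1.98 CPM in liver. Liver 67, the highest liver library, lay above 2 backfat libraries. Its log2 fold change of 1.36 ± 0.41 had an adjusted p of 0.0132 (edgeR, n = 5 per tissue) but was under the fold threshold.

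CYP1A1 and CYP1A2 are neighbours on chromosome 7 that point away from each other, with 16731 bases between them. CYP1A1 is a known target of the aryl hydrocarbon receptor, which binds DNA at dioxin response elements with the core GCGTG. The bases before the first annotated base of CYP1A1, at chr7:58802700-58802886 on the plus strand, are shown because the gene had one of the largest liver levels of the group, with the core on either strand (GCGTG or CACGC) and the TATA box (TATAAA) in capitals.
CYP1A1 upstream: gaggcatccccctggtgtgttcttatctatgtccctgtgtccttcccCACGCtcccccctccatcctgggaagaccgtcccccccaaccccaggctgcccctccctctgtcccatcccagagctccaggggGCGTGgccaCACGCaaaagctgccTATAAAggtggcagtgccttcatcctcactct
The 200 bases before the RefSeq transcript held 3 cores, none overlapping the TATA box. A core on either strand was present in 29.2% and the TATA letters in 7.62% of 19556 windows of the same length before RefSeq genes. AHR itself was at 20.5 CPM in backfat and 40.1 CPM in liver on average (log2 fold change -0.97, adjusted p = 0.0321, edgeR), and was not called. ARNT, another factor known to control P450 genes, went the other way and was not called. It was at 85.0 CPM in backfat and 32.5 CPM in liver (1.39, adjusted p = 1.46e-05, edgeR).

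Family 2, the largest in mammals, had 8 genes in the table, of which 3 were higher in liver, 1 was higher in backfat, 3 were tested and not called, and CYP2W1 was not tested. CYP2D6 was at 1.34, 0.442, 2.98, 1.30 and 0.858 CPM in backfat. In liver it was at 1818, 1202, 2027, 2187 and 2590 CPM. The highest backfat library was below every liver library, with a log2 fold change of -10.47 ± 0.65 (SE, n = 5 per tissue, adjusted p = 6.33e-08, edgeR). The identifier with this symbol is named CYP2D25 in the study's gene list. In pig liver, the enzyme of that name is known to hydroxylate vitamin D.

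CYP2E1 oxidises ethanol and, in pigs, takes part in the breakdown of skatole, a compound of boar taint. It was at 10.5, 11.7, 17.6, 12.7 and 11.3 CPM in backfat, the smallest spread of the genes higher in liver (highest over lowest, 1.68). In liver its levels were 2182, 607, 2160, 1972 and 1526 CPM. The tissues did not overlap, liver 67 being the lowest of the liver libraries, and the log2 fold change was -7.05 ± 0.45 (SE, n = 5 per tissue, adjusted p = 7.95e-08, edgeR).

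CYP2A19, which is also known for skatole breakdown, was the gene, of the 7 called higher in liver, for which backfat reached the largest part of the liver level. It was at 55.0, 89.8, 114, 169 and 133 CPM in backfat. In liver it was at 499.7, 10.8, 511, 636 and 605 CPM. Backfat lay below 4 of the liver libraries and above liver 67, where the gene was at 2.11% of the liver median. The other P450 genes with a mean of at least 10 CPM in liver were at 30.8% to 84.8% of their median in that library. The log2 fold change was -2.01 ± 0.70 (SE, n = 5 per tissue, adjusted p = 0.0282, edgeR). Without liver 67 it was -2.36 (adjusted p = 3.29e-05). The call was lost without backfat 65, 67 or 69 or without liver 65, 69, 71 or 72 (-1.83 to -2.01, adjusted p = 0.0438 to 0.0657), and with boar as a block (-1.66, adjusted p = 0.122).

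CYP2S1, an enzyme of epithelia outside the liver, went the other way. It was at 31.5, 26.2, 41.4, 20.8 and 19.5 CPM in backfat and at 1.82, 7.91, 1.42, 5.47 and 2.50 CPM in liver. Every backfat library was above every liver library (log2 fold change 2.87 ± 0.46, SE, n = 5 per tissue, adjusted p = 0.000173, edgeR). Liver 67 was the highest liver library.

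Of the family 2 genes tested and not called, CYP2U1, a hydroxylase of long-chain fatty acids, had the highest mean level per kb of exon in both tissues. It was at 26.7, 14.0, 26.6, 18.5 and 13.8 CPM in backfat and at 62.1, 11.1, 69.7, 18.5 and 28.8 CPM in liver. The liver values spread 6.28-fold from lowest to highest and spanned all backfat values (log2 fold change -0.93 ± 0.45, adjusted p = 0.0938, edgeR, n = 5 per tissue).

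CYP2R1, the main vitamin D hydroxylase of the first activation step, was at 3.69, 4.64, 6.06, 3.26 and 3.86 CPM in backfat and at 5.56, 6.78, 6.94, 5.21 and 5.40 CPM in liver. The ranges overlapped only through backfat 69 (log2 fold change -0.48 ± 0.23, adjusted p = 0.0930, edgeR, n = 5 per tissue). CYP2F1, a gene of the lung in other mammals, was at 2.90, 1.62, 0.622, 2.63 and 2.23 CPM in backfat and at 0.997, 0.621, 0.828, 0.221 and 0.515 CPM in liver. Without backfat 69 the backfat values were all above the liver values, and the log2 fold change was 1.64 ± 0.48 (adjusted p = 0.0109, edgeR, n = 5 per tissue).

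Family 4 enzymes hydroxylate fatty acids and eicosanoids at the end of the chain. Of the 4 genes, CYP4B1 and CYP4F22 were higher in backfat, CYP4F3 was higher in liver, and CYP4V2 was not called. CYP4B1, known from lung, was at 147, 58.9, 132, 176 and 135 CPM in backfat. In liver it was at 0.0997, 0.648, 0.319, 0 and 0.190 CPM. The lowest backfat library, 67, was still far above the highest liver library, and the log2 fold change of 8.97 ± 0.64 (SE, n = 5 per tissue, adjusted p = 1.87e-07, edgeR) was the largest in favour of backfat among the P450 genes tested.

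CYP4F22 makes skin barrier lipids from very long fatty acids in keratinocytes. It was at 1.22, 0.519, 1.68, 2.88 and 3.04 CPM in backfat and at 0.224, 0, 0.0425, 0.0632 and 0 CPM in liver. The tissues did not overlap (log2 fold change 4.75 ± 0.83, SE, n = 5 per tissue, adjusted p = 0.000371, edgeR). Of 6 keratinocyte markers, 4 were found, and their sum was 6.11 to 7.64 CPM in backfat and 6.50 to 15.2 CPM in liver. Nearly all of it was KRT10, while in backfat KRT1 and DSG1 had counts in library 69 only, at 0.0505 and 0.0168 CPM. KRT15 was at 0.0451, 0, 0.118, 0.0721 and 0.120 CPM in backfat. In liver it had a count in library 65 only, at 0.0249 CPM. The part of skin cells in the level of CYP4F22 was not tested.

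CYP4F3 inactivates leukotrienes. It was at 0, 0, 0.135, 0.0180 and 0 CPM in backfat and at 19.4, 16.5, 32.6, 32.1 and 12.8 CPM in liver. Only backfat 69 and 71 had any count, and the log2 fold change was -9.54 ± 0.74 (SE, n = 5 per tissue, adjusted p = 4.00e-07, edgeR).

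CYP4V2, a fatty acid hydroxylase known from the retina, was at 40.7, 71.5, 52.6, 24.8 and 39.8 CPM in backfat and at 72.1, 28.4, 64.3, 69.3 and 69.2 CPM in liver. Liver 67 lay among the backfat libraries, and the other liver libraries were within 64.3 to 72.1 CPM (log2 fold change -0.40 ± 0.30, adjusted p = 0.273, edgeR, n = 5 per tissue).

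The retinoic acid hydroxylases of family 26 were called in opposite directions. They remove retinoic acid, the signalling form of vitamin A, which is stored in liver. CYP26A1 was at 0.0902, 0.580, 0.185, 0.126 and 0.292 CPM in backfat. In liver it was at 49.3, 14.8, 47.7, 40.0 and 54.6 CPM. The tissues did not overlap, and the log2 fold change was -7.34 ± 0.55 (SE, n = 5 per tissue, adjusted p = 3.06e-07, edgeR).

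CYP26B1 was at 3.56, 6.61, 1.80, 4.40 and 3.33 CPM in backfat. Its levels in liver were 0.474, 1.54, 0.340, 1.11 and 0.705 CPM. Backfat 69, the lowest of its tissue, was just above liver 67, the highest of its tissue, so the groups did not overlap. The log2 fold change was 2.25 ± 0.46 (SE, n = 5 per tissue, adjusted p = 0.00129, edgeR). Without backfat 67, the highest library, it was 1.99 (adjusted p = 0.00417) and under the fold threshold. Per kb of exon, CYP26A1 was at 19.2 ± 7.30 CPM and CYP26B1 at 0.168 ± 0.0989 CPM in liver (SD, n = 5). In backfat the order was turned, at 0.118 ± 0.0917 and 0.795 ± 0.355 CPM per kb. CYP26C1 was not tested and reached at most 0.107 CPM in any library.

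CYP26A1 is a known target of the retinoic acid receptors, which bind direct repeats of a half-site. The letters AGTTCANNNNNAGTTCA, such a repeat with 5 bases between its parts, were looked for on both strands in 200 bases before the RefSeq transcripts. They were found in 1 of 19556 windows, or 0.00511%, the one before CYP26A1. The letters were set by choice and other spellings of the half-site were not searched. The share is therefore no measure of how rare such repeats are. The match is shown in capitals with its flanks, at chr14:104563524-104563552 on the plus strand, where the repeat reads on the opposite strand.
CYP26A1 repeat: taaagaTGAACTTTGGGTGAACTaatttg
It ends 47 bases before the transcript used, and the whole window lies within the annotated span of the gene. Of the receptors, RARA was at 48.8 CPM in backfat and 34.6 CPM in liver on average (log2 fold change 0.50, adjusted p = 0.0534, edgeR). RARB was at 1.66 CPM in backfat and 5.96 CPM in liver (-1.85, adjusted p = 0.00322), and neither was called.

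The steroid hormone genes were low in both tissues, and in backfat they varied between boars. CYP21A2, which makes precursors of cortisol and aldosterone in the adrenal cortex, was at 0.519, 0.992, 0.235, 0.703 and 1.92 CPM in backfat. In liver it was at 0.150, 0.108, 0.149, 0.126 and 0.0271 CPM. Every backfat library was above every liver library, with an 8.16-fold range in backfat, and the log2 fold change was 2.93 ± 0.61 (SE, n = 5 per tissue, adjusted p = 0.00131, edgeR).

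CYP17A1, which leads to androgens, and CYP11A1, which starts steroid synthesis from cholesterol, did not pass the filter. CYP17A1 was at 1.06, 0.0458, 3.63, 0.0541 and 1.15 CPM in backfat, and in liver 1 fragment in all was counted, in liver 65. Backfat 65, 69 and 72 were high and 67 and 71 low. Over the libraries, 383 fragments in backfat against 1 in liver give a ratio of 225 (exact 95% interval 40.2 to 8930, counting error only). The backfat fragments were 94, 3, 216, 3 and 67. The ratio therefore rests mostly on backfat 65, 69 and 72 and does not hold for each boar. With no filter on low counts, the log2 fold change of CYP17A1 was 7.33 (adjusted p = 0.000546, edgeR quasi-likelihood test), and with DESeq2 it was 7.34 (adjusted p = 2.61e-05).

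CYP11A1 was at 0.406, 0.0610, 0.757, 0.0541 and 0.395 CPM in backfat, high and low in the same libraries as CYP17A1, and at 0.0499, 0.189, 0, 0.190 and 0 CPM in liver. With no filter its log2 fold change was 2.06 (adjusted p = 0.105, edgeR). INSL3, a hormone of testicular Leydig cells, was at 0.778, 0.122, 7.33, 0.0180 and 1.53 CPM in backfat, again highest in 69, 72 and 65. STAR, which delivers cholesterol for steroid synthesis, was at 9.44, 9.34, 19.2, 16.0 and 23.2 CPM in backfat and did not follow that order. Nor did MC2R, at 0.203, 0.198, 0.185, 0.144 and 0.2745 CPM, or NR5A1, at 0.0902, 0.259, 0.421, 0.126 and 0.154 CPM. FSHR had counts in backfat 67 and 69 only, at 0.0153 and 0.168 CPM. CYP21A2 was lowest in backfat 69. The full list of 5 markers of steroid-producing cells found in the table summed to 9.93 to 27.3 CPM in backfat and 4.08 to 7.91 CPM in liver. Most of that sum was STAR in every library. The part of such cells in these levels was not tested.

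**Figure D3:**
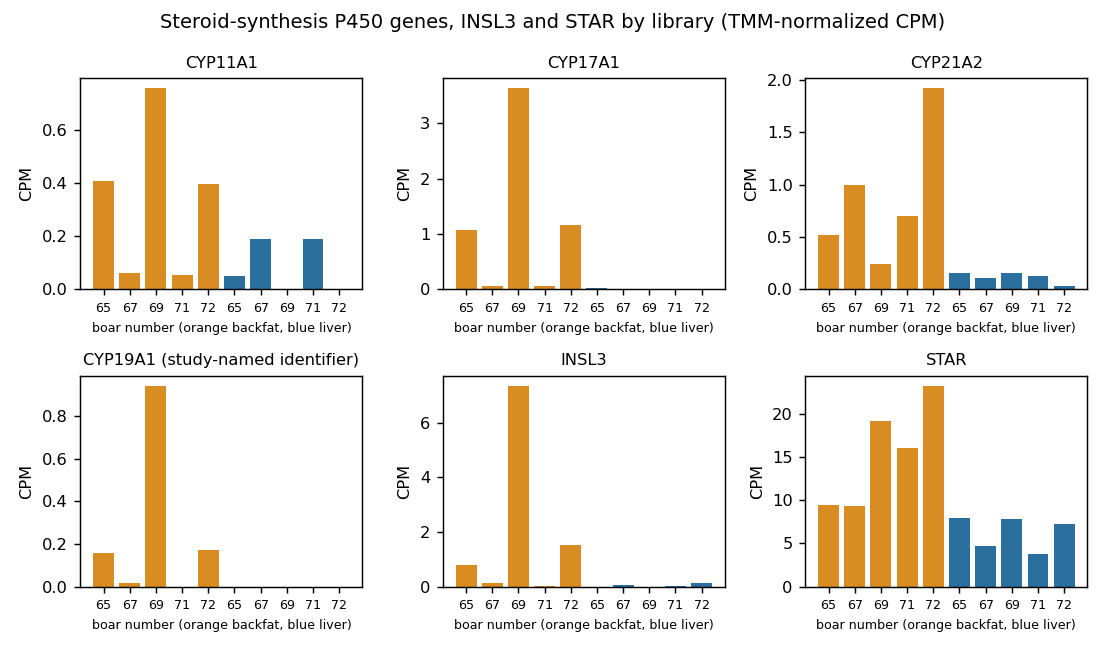
CPM of CYP11A1, CYP17A1, CYP21A2, an identifier named CYP19A1 in the study's gene list, INSL3 and STAR in each library, with boar numbers along the bottom, backfat in orange and liver in blue, and axes that start at 0. CYP11A1, CYP17A1, CYP19A1 and INSL3 share their 3 highest backfat libraries (65, 69 and 72), whereas CYP21A2 is highest in 72 (1.92 CPM) and lowest in 69 (0.235 CPM).

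The remaining genes act on vitamin D and on sterols. CYP39A1, a hydroxylase of oxysterols, was tested and at 11.01, 12.1, 14.9, 12.2 and 12.4 CPM in backfat and at 25.9, 14.7, 24.3, 17.0 and 20.2 CPM in liver. Only liver 67 fell below the highest backfat library, and the log2 fold change was -0.71 ± 0.18 (adjusted p = 0.00594, edgeR, n = 5 per tissue), under the fold threshold. CYP27B1, which completes vitamin D activation in kidney, was at no more than 0.151 CPM in any library. CYP24A1, which inactivates vitamin D, had counts in backfat 69 only, at 0.0336 CPM. No fragment of it was counted in liver, which allows up to 0.0156 CPM over the tissue. CYP46A1, the cholesterol hydroxylase of neurons, was at 0.0458 to 0.101 CPM in backfat and had 1 fragment in liver. Without the filter its log2 fold change was 3.33 (adjusted p = 0.0145, edgeR). CYP2W1 was at most 0.0677 CPM.

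Summed over the 25 genes, the level per kb of exon was 178 ± 38.9 CPM in backfat and 2291 ± 695 CPM in liver (SD, n = 5). The make-up differed as well. In backfat, CYP4B1 gave 41.6% ± 10.2 and CYP2A19 35.9% ± 9.03 of the sum, followed by CYP4V2 with 7.30% ± 4.33 and CYP2S1 with 5.30% ± 1.99 (SD, n = 5). In liver, CYP2D6 gave 50.8% ± 9.77, CYP2E1 19.0% ± 3.61, CYP2A19 10.2% ± 5.54, CYP1A1 9.90% ± 3.92 and CYP1A2 7.74% ± 1.16. Levels per kb and shares depend on the exon lengths used, and a longer length lowers them. For CYP2E1 that length was 3787 bases, against 1693 bases in the RefSeq transcript. For CYP2A19 it was 1725 bases, against 1755 bases. The 4 family 4 genes among the 25 made up 49.3% ± 7.80 of the backfat sum and 1.00% ± 0.145 of the liver sum. These shares leave out P450 genes without a symbol in the table used. Identifiers that the study's gene list names CYP4A24 and CYP4F8 had means of 648 and 263 CPM in liver and 0.273 and 5.27 CPM in backfat. The liver share is therefore not that of the whole of family 4. Also outside the sums were CYP2C42, at 2028 CPM in liver and 1.83 CPM in backfat, and CYP2B22, at 1.47 and 11.1 CPM.

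**Figure D4:**
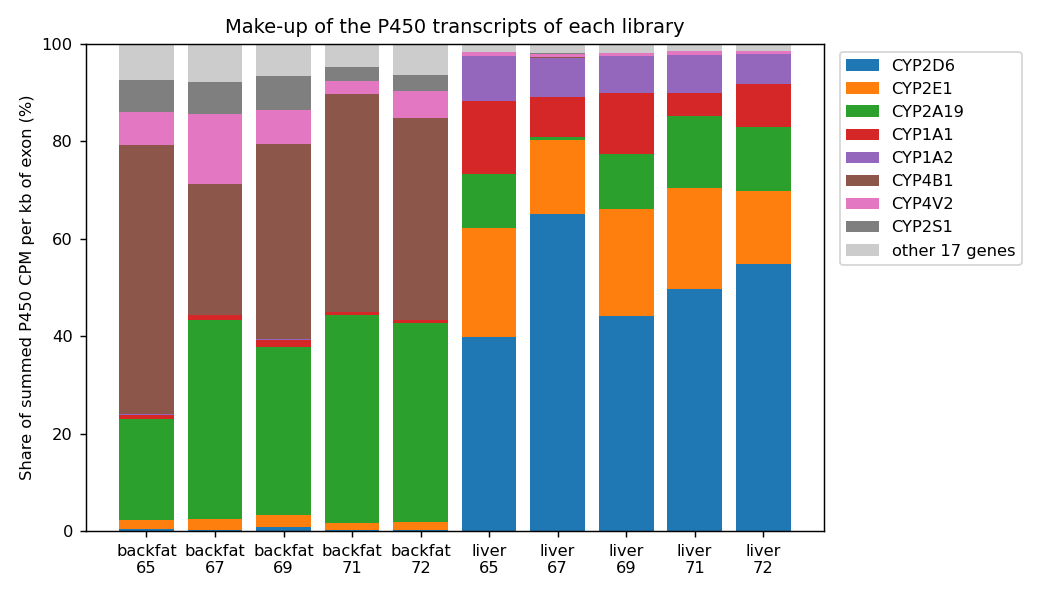
Share of the summed P450 level per kb of exon taken by each of 8 genes and by the other 17 together, for every library. CYP4B1 and CYP2A19 take most of each backfat bar, CYP2D6 takes 39.9% to 65.1% of the liver bars, and CYP2A19 takes 0.593% in liver 67 against 11.2% to 14.7% in the other liver libraries.

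Members varied widely between liver libraries. Of the 10 P450 genes with a mean of at least 10 CPM in liver, 9 had their lowest liver value in liver 67. The exception was CYP4F3, lowest in liver 72. In contrast, CYP1B1, CYP2S1, CYP4B1 and CYP26B1 had their highest liver value in liver 67. Skeletal muscle markers, of which 3 of 7 were found, summed to 159 CPM in that library and to 0.379 to 1.22 CPM in the other liver libraries. Red cell markers (4 of 5 found) were at 1778 CPM there and at 71.7 to 374 CPM in the others. Fibroblast markers summed to 1099 CPM there against 625 to 999 CPM, and smooth muscle markers to 427 CPM against 178 to 315 CPM. Cholangiocyte markers (4 of 5 found) were at 72.6 CPM against 34.6 to 39.6 CPM. Lymphocyte markers were at 52.2 CPM against 18.2 to 33.5 CPM, and endothelium markers at 183 CPM against 136 to 165 CPM. Macrophage markers were lowest there, at 1050 CPM against 1153 to 1630 CPM. The part of these cells or of mitochondrial RNA in the P450 values of liver 67 was not tested. CYP1A1 and CYP2U1 also spread among the others, at 424 CPM and 18.5 CPM in liver 71 and at 1132 CPM and 69.7 CPM in liver 69. From liver 69 to 65, 72, 71 and 67, the level of CYP2U1 went down while the mitochondrial share went up, from 6.38% to 6.97%, 11.9%, 20.2% and 44.5%. Of the 10 genes, CYP2U1 alone had this order, and a link was not tested. CYP1A1 and CYP2E1 were highest in liver 65, CYP2A19 in liver 71 and CYP2D6 in liver 72.

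Most genes higher in liver were detected in backfat at a small part of the liver level, which could be set beside the hepatocyte markers of the same library. In the 4 backfat libraries other than 69, CYP1A1 was at 0.559% to 0.611% and CYP2E1 at 0.620% to 0.754% of the liver mean. ALB, the defining hepatocyte gene, was at no more than 0.00107% there, whereas APOA1 was at 1.15% to 1.46% and the sum of the 10 markers at 0.144% to 0.181%. CYP2D6 was at 0.0225% to 0.0683% in these libraries, and CYP2A19 at 12.2% to 37.3%.

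In backfat 69, ALB was at 0.111% of its liver mean, and the other markers were between 0.0973% and 0.202% apart from APOA1 at 3.31%. CYP1A2 was at 0.121%, CYP2D6 at 0.152%, CYP4F3 at 0.594%, CYP2E1 at 1.04% and CYP1A1 at 1.26%, each the highest of the backfat libraries. CYP26A1 was at 0.448% there and highest in backfat 67, at 1.40%. The part of liver RNA in the P450 levels of backfat 69 was not tested. Without this library the log2 fold changes of these 6 genes kept their direction and call.

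**Figure D5:**
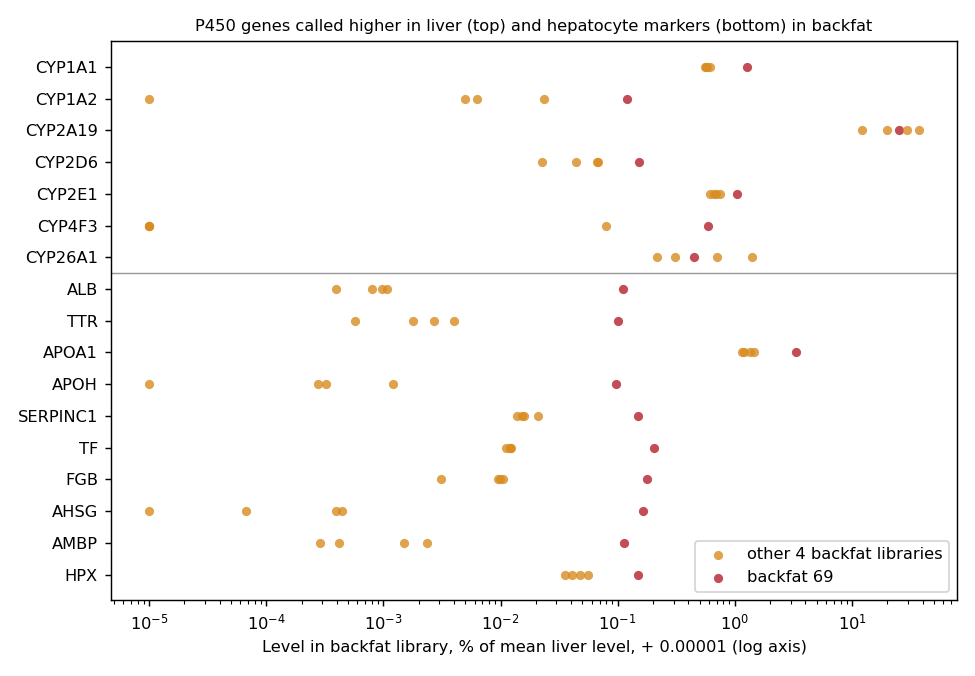
Level in each backfat library as a percent of the mean liver level, + 0.00001, on a log axis, for the 7 P450 genes called higher in liver (top) and 10 hepatocyte markers (bottom), with backfat 69 in red and the other 4 in orange. The markers other than APOA1 lie between 0.0973% and 0.202% in backfat 69, CYP1A1 and CYP2E1 lie above most markers in all libraries, and CYP2A19 lies between 12.2% and 37.3%.

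The proteins that serve P450 enzymes were higher in liver or not called. Of 8 redox partners tested, 3 were called, all higher in liver, where 11.2% of all genes tested were called higher in liver. The median log2 fold change was -1.32. These were CYB5A, which passes electrons to P450 enzymes of the endoplasmic reticulum (-2.85, adjusted p = 5.06e-06, edgeR), FDX1, the mitochondrial ferredoxin (-2.32, adjusted p = 2.96e-05), and PGRMC1, a heme-binding membrane protein (-2.45, adjusted p = 5.60e-05). POR, the oxidoreductase, was not called, at 174 CPM in backfat and 527 CPM in liver on average (-1.60, adjusted p = 0.000376). CYB5B (0.93, adjusted p = 0.0233, edgeR), CYB5R3 (0.64, adjusted p = 0.1035) and PGRMC2 (0.15, adjusted p = 0.573) had estimates toward backfat and were not called.

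Of 13 genes of heme synthesis and breakdown, 5 were called, all higher in liver, with a median of -1.37. The share of all genes tested that were called higher in liver was 11.2%. ALAS1, the first and rate-limiting step, had a log2 fold change of -3.79 (adjusted p = 6.70e-07, edgeR). The others were ALAD (-2.08) and CPOX (-2.37) of the same route and HMOX2 (-2.25) and BLVRB (-4.08) of breakdown. HMOX1, the inducible enzyme of heme breakdown, was not called, at 58.0 CPM in backfat and 150.0 CPM in liver (-1.37, adjusted p = 0.00132).

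Of 20 tested transcription factors known to control P450 genes, 9 were called, all higher in liver, with a median of -1.77. Again, 11.2% of all genes tested were called higher in liver. The receptors for foreign compounds were among them, NR1I2 (PXR) at -8.01 and NR1I3 (CAR) at -4.50. So were the liver factors HNF4A (-9.52) and ONECUT1 (-11.16), the bile acid receptor NR1H4 (-13.15) with NR0B2 (-10.10), NR5A2 (-3.74), and PPARA (-2.08), a fatty acid sensor. RXRA, the partner of many of these receptors, was not called, at 148 CPM in backfat and 373 CPM in liver (-1.33, adjusted p = 8.62e-05, edgeR). CEBPA, a factor of both fat and liver cells, was at 306 CPM in backfat and 119 CPM in liver (1.36, adjusted p = 0.0195). PTGIS, the P450-fold enzyme that makes prostacyclin, was higher in backfat (3.70, adjusted p = 4.55e-06), and the related TBXAS1, which makes thromboxane, was not called (0.05, adjusted p = 0.896).

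Some identifiers with no symbol in the table used here carry CYP names in the study's gene list, which was chosen on these libraries, so they stand outside the counts above. There were 6 of them. CYP2C42, of a subfamily of drug-metabolising enzymes, was at 0.643 to 5.48 CPM in backfat and at 3151, 562, 3864, 969 and 1594 CPM in liver (log2 fold change -10.12, adjusted p = 2.61e-06, edgeR). CYP4A24 was at 0 to 1.08 CPM in backfat and at 928, 120, 1350, 403 and 437 CPM in liver (-11.22, adjusted p = 9.26e-06). Both had their liver values in the same order as CYP2U1, with liver 69 highest and liver 67 lowest.

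CYP4F8 was at 3.91 to 7.73 CPM in backfat and 117 to 370 CPM in liver (-5.64, adjusted p = 1.18e-07, edgeR). CYP2B22 was higher in backfat, at 10.5, 27.4, 9.08, 4.67 and 3.71 CPM against 0.786 to 2.97 CPM in liver (2.92, adjusted p = 0.00102). CYP3A29 was not tested and was at most 0.224 CPM in any library. No CYP3A gene was among the 25 members, so this identifier alone gives no level for the CYP3A subfamily. CYP19A1, the aromatase, was not tested. It was at 0.158, 0.0153, 0.942, 0 and 0.172 CPM in backfat, and no fragment was counted in liver. With 3 fragments over the liver libraries as the floor, the backfat mean was at least 16.5-fold the liver level, counting error only. That mean rested mostly on backfat 69, with 56 fragments, while backfat 67 had 1 and backfat 71 had 0. The ratio therefore does not hold for each boar. The exon length used for CYP2C42, 16250 bases, was 9.03 times that of the RefSeq transcript of that name, and for CYP4A24 the ratio was 4.90. No level per kb is therefore given for these identifiers.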

How the data were processed

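RNA-seq was made from backfat and liver of 5 boars, 5 libraries per tissue. Per the file headers and the study's methods, the authors trimmed reads with Trimmomatic, mapped them with HISAT2 to Sscrofa11.1 and deposited raw counts of read pairs per gene from featureCounts 2.0.1, with exons of Ensembl release 99. The versions of the other tools are not given in the sources used here. Strand was not set, and the options that count reads of several places or several genes were not given. Genes with close copies (CYP2C, CYP2D, CYP4A and CYP4F among them) and genes that overlap are therefore uncertain. The exon lengths deposited with the counts gave the levels per kb. Symbols came from a newer Ensembl table. The WGBS calls deposited for the other libraries carry no genomic position and were not used.

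Tests were run with edgeR 4.0.16 under R 4.3.3, using filterByExpr, TMM and the quasi-likelihood test with tissue as the only term over 16275 genes. Adjusted p-values are Benjamini-Hochberg values of this test unless another is named, and a standard error is the log2 fold change over the root of its F statistic. Tissues were taken from the labels and boar numbers from the column headers, since replicate numbers of the labels could not be matched to boars. Deviations from the tissue means correlated at 0.226, 0.0945, 0.0359, 0.173 and 0.121 between the libraries of boars 65, 67, 69, 71 and 72 over these genes. The highest correlation with another boar was 0.0692, 0.106, 0.152, 0.0389 and 0.093, which is above the same-boar value for boars 67 and 69. Boar was used as a block because the headers give both tissues the same boar numbers and the study sampled both from the same 5 boars.

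Alternatives were relative log expression factors, library size alone, DESeq2 1.42.0, limma 3.58.1 (voom), glmTreat, no filter, at least 10 counts in every library, mitochondrial genes removed, boar as a block, and leaving out libraries. The script was tested on simulated data. An item of the lists is not reported here by name. The members, lists and rules were chosen with earlier results of these data known. Levels in each library were given for all members called, members whose call changed when 1 library was left out, and the 6 tested members not called. Intervals and floors (3 counts) cover counting error only. RefSeq sequences were read from Sscrofa11.1 for the 13 members matched by symbol.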

Additional observations from a re-analysis of the deposited data

Results flagged for a closer look

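In 35 sets of 5 libraries, 1 gene in 1 tissue each, 5 had a library whose gap to the nearest other was above 0.71 of the range (Dixon's critical value). Chance gives about 1 in 20 such sets. CYP1A1 was at 10.2 CPM in backfat 69, against 4.52 to 4.94 CPM in the other backfat libraries, and CYP1A2 was at 0.437 CPM there, against 0 to 0.0858 CPM. CYP2A19 was at 10.8 CPM in liver 67, against 499.7 to 636 CPM in the other liver libraries, and CYP4V2 was at 28.4 CPM there, against 64.3 to 72.1 CPM. CYP4F22 was at 0.224 CPM in liver 65, against 0 to 0.0632 CPM.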

How the results depend on the processing

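The counts of P450 genes called were 7 in liver and 5 in backfat, and 6 to 7 and 4 to 5 when 1 library was left out. They were 4 and 2 with at least 10 counts in every library, where 11 P450 genes were tested, 6 and 2 with glmTreat, which asks for a log2 fold change above 2, 7 and 7 with DESeq2, 6 and 7 with library size alone or no filter, and 6 and 5 with boar as a replicate block or limma-voom. CYP21A2, CYP26B1 and CYP2S1 were not called by glmTreat. CYP2A19 lost its call with limma-voom (-1.26), library size alone (-1.34), no filter (-1.97), glmTreat and the block (-1.66), and the block changed no other P450 call. With library size alone the median over all genes moved to 0.71 (log2), the share of calls higher in liver was 31.8% against 50.07%, CYP2R1 and CYP4V2 reversed to 0.23 and 0.31, and CYP1B1 (2.10) and CYP2F1 (2.31) were called. The cause was not tested. Of 353 values of single genes under the alternatives, 333 kept direction and call. Over all genes, 1814 were higher in backfat, with 2874 by library size alone, 1126 by glmTreat and 871 with at least 10 counts in every library, and 1819 were higher in liver, with 2729 without a filter and 981 with at least 10 counts. In the lists, library size alone and glmTreat each called 2 heme genes and 1 redox partner, and 4 transcription factors were called with at least 10 counts. Genes under about 1 CPM rest on few fragments, and for them a difference could be missed at this depth.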
